A study of Mus musculus with 18 samples.

Results

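MicroRNAs (miRNAs) were counted in 3 libraries of left testicle and 3 libraries of right testicle, which are 6 of the 18 small-RNA libraries of a study that also covered left and right eyes and lungs. The 6 libraries were chosen by the labelled tissue alone, not by any measured value. Both groups were male C57BL/6 mice labelled as 8 to 12 weeks old, kept under the same housing, and no treatment or mutation is named for either. The labels give no pooling of animals and do not say whether a left and a right library came from the same mouse, so p-values measure only the spread between these libraries, which may be technical in part. The comparison asks whether the paired gonads of a normal mouse differ in their miRNAs.

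A mature miRNA guides a silencing complex to messenger RNAs, mainly through its seed, which is bases 2 to 8 from the 5′ end. Each precursor hairpin can yield a miRNA from its 5′ arm (5p) and another from its 3′ arm (3p), so the arms of a hairpin are made together and then kept or degraded separately. In the testis, miR-34 and miR-449 family members are abundant in meiotic and later germ cells, a large X-linked group related to miR-506 is expressed in spermatogenic cells and Sertoli cells, and miR-202 marks the gonads. The let-7 family restrains proliferation and is known for its role in cell differentiation, and the 17-92 cluster with its paralogues is known for promoting proliferation.

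The sequences of the miRNAs on which the account turns are given here 5′ to 3′ as in RefSeq for GRCm38.p6, with the seed in capitals. The first group shares the let-7 seed and is shown because its members were higher in level on the right in a block, although their precursors lie on several chromosomes.

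let-7a-5p: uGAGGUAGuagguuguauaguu

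let-7c-5p: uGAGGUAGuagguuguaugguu

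let-7e-5p: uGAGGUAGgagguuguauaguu

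let-7f-5p: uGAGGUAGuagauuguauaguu

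miR-98-5p: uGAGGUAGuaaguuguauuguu

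The next group comes from the 17-92 cluster (miR-17 and miR-18a) and from its paralogue in Mcm7 (miR-106b and miR-25), and is shown because these had the lowest p-values of that list, with higher levels on the left. MiR-17-5p and miR-106b-5p share a seed, and miR-18a-5p and miR-25-3p each have another.

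miR-17-5p: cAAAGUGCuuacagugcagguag

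miR-106b-5p: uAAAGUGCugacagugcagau

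miR-18a-5p: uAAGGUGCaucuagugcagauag

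miR-25-3p: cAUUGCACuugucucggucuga

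Of the single miRNAs, miR-341-3p had the lowest p-value, miR-183-5p was the most abundant of the 5 with the largest difference towards the left among non-overlapping miRNAs averaging 50 CPM or more, and miR-7210 differed in both arms.

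miR-341-3p: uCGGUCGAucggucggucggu

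miR-183-5p: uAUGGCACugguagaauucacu

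miR-7210-5p: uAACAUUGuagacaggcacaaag

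miR-7210-3p: uUAUAUGUaaguaacaauguggcu

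The last pair shows neighbouring X-linked miRNAs with the same seed, of which miR-743b-3p was near 0 in some libraries and miR-743a-3p in none.

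miR-743a-3p: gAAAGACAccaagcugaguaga

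miR-743b-3p: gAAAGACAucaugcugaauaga

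The left libraries held 952608, 1569527 and 1209864 counts, and the right libraries 1529149, 1893132 and 1692817. Left testicle 1 was thus the shallowest, and 2 of the 3 right libraries were deeper than every left library. Between 759 and 840 of the 1431 listed miRNAs had at least 1 count per library. Where a miRNA had 0 counts, up to 3 counts could have been missed, or 1.58 to 3.15 counts per 1e6 of the library total (CPM), and this limit covers counting error only. The labelled organ was checked against its markers: miR-202-5p had 34758 to 43620 CPM of the library totals in the 6 libraries against at most 22.8 in any eye and 110 in any lung library. MiR-871-5p of the X-linked group had 8425 to 11982 CPM against at most 3.26 and 15.4.

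No miRNA passed the test between left and right testicle. Of 464 miRNAs with enough counts to test, 0 had an edgeR adjusted p under 0.05 (0%), and the lowest adjusted p was 0.574. At an unadjusted p under 0.05 there were 36 (7.76%), of which 18 were higher on the left (3.88%) and 18 on the right (3.88%). DESeq2 called 1 miRNA, miR-532-5p, and had 35 at an unadjusted p under 0.05. The sides did not overlap, with all 3 libraries of a side above all 3 of the other, for 74 miRNAs (15.9%), 36 higher on the left (7.76%) and 38 on the right (8.19%). With the replicate number as a block, edgeR again called 0 of 464. There, 81 of 464 had an unadjusted p under 0.05, more than without the block, and the lowest edgeR adjusted p was 0.184.

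The log2 fold change of left minus right was above 0 for 269 miRNAs (58.0%) with a median of 0.05 over all tested. Scaling moved this balance. With library totals alone 68.1% were above 0 and the median was 0.16, with relative log expression scaling 49.4% were above 0, and with all 18 libraries in 1 fit 37.1% were above 0 and the median was -0.13. Directions close to 0 therefore follow the scaling. The biological coefficient of variation between testicle libraries was 38.9%, while eye libraries had 29.0% and lung libraries 46.5%.

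Libraries of opposite sides were about as alike as libraries of the same side. Across miRNAs, log2 CPM correlated between libraries of the same side with a median r of 0.956 (6 pairs) and between opposite sides with a median r of 0.953 (9 pairs), where miRNAs are not independent replicates. The opposite-side pairs include 3 with the same replicate number, whose r was 0.946, 0.965 and 0.963. The mean distance between opposite-side libraries exceeded that within a side by 0.056, at 21.93 against 21.88 on a log2(CPM + 1) scale. An exact one-sided permutation over the 10 possible splits gave p = 0.5, and the smallest p these splits allow is 0.1. The permutation ignores the replicate numbers and could not have passed 0.05, so it does not show that the sides are alike.

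**Figure D1:**
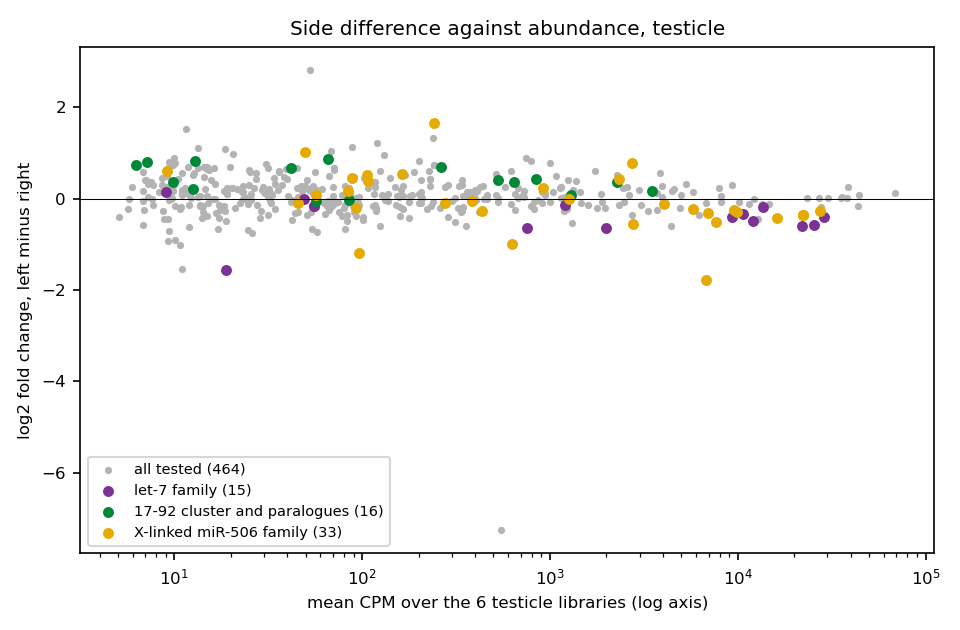
Each point is a tested miRNA, placed by its mean CPM over the 6 testicle libraries (log axis) and its log2 fold change of left minus right. Points of the let-7 family (15) lie mostly below 0 and points of the 17-92 cluster and paralogues (16) mostly above 0, and no point passed the test after adjustment.

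Most of the abundant miRNAs of the testis overlapped between the sides, and no test of equal levels was run. MiR-449a-5p, from an intron of Cdc20b (chr13:113037534-113037624; positions from RefSeq and overlapping genes from GENCODE M21, both on GRCm38.p6), held the highest mean level, with 82473, 51396 and 81208 CPM on the left and 80502, 53507 and 64006 on the right. Here and below, unless library totals are named, CPM are scaled by the trimmed mean of M values (TMM). The sides overlapped and differed by 0.12 on the log2 scale, left minus right (SE 0.24; edgeR adjusted p 0.892). The germ cell miRNA miR-34b-3p had 17736 to 32284 CPM on the left and 20393 to 39101 on the right, and its difference was -0.17 (SE 0.31). The gonadal miR-202-5p had 43303, 35252 and 36950 CPM on the left and 39528, 35059 and 39177 on the right, a difference of 0.02 (SE 0.13), and its other arm, miR-202-3p, had -0.14 (SE 0.34). Of the 10 most abundant miRNAs, 8 overlapped between the sides. The exceptions were miR-16-5p, which restrains cell cycle genes and had 38343 to 49655 CPM on the left against 32296 to 37701 on the right (0.26, SE 0.15), and let-7c-5p, described with its family. The signs of miR-449a-5p, miR-22-3p, miR-202-5p, miR-26a-5p, miR-99a-5p, miR-143-3p and miR-34b-3p changed with the scaling or with the libraries used.

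Of the let-7 family and miR-98, 14 of 15 tested members had a log2 fold change below 0, against 42.0% of all tested miRNAs, and the median was -0.40 against 0.05 over all tested. None passed the test after adjustment (0 of 15). The 15 include let-7c-2-3p and let-7a-1-3p, which carried identical counts in every library. With identical names merged, 13 of 14 were below 0. Sides did not overlap for 6 members, all higher on the right, namely let-7a-5p, let-7b-5p, let-7c-5p, let-7e-5p, let-7f-5p and miR-98-5p, where 8.19% of all tested miRNAs were higher on the right without overlap. The median lay between -0.26 and -0.61 under every alternative tried. With each library thinned to the depth of the smallest it was -0.40.

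Let-7f-5p had 13853, 16433 and 21799 CPM on the left and 25225, 23400 and 30816 on the right. The highest left library lay just under the lowest right one, and the difference was -0.61 (SE 0.21; edgeR adjusted p 0.574). Let-7a-5p had 16024, 20143 and 25427 CPM on the left and 31776, 25981 and 34069 on the right (-0.58, SE 0.20). For both, left testicle 1 was lowest and left testicle 3 was close to right testicle 2.

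Let-7e-5p had 1063, 1701 and 1879 CPM on the left and 2483, 2069 and 2690 on the right (-0.64, SE 0.24). MiR-98-5p had 407, 676 and 664 CPM on the left and 777, 969 and 1008 on the right (-0.65, SE 0.24). The most abundant member, let-7c-5p, had 19273, 26235 and 29434 CPM on the left and 34170, 29759 and 34895 on the right, a smaller difference of -0.40 (SE 0.18). Let-7g-5p and let-7i-5p overlapped between the sides, at -0.18 (SE 0.14) and -0.33 (SE 0.24). The 3′ arm let-7e-3p, made from the same hairpin as let-7e-5p, had a small fitted difference of -0.01 (SE 0.22). The ratio of the let-7e arms differed by -0.66 between the sides (limma adjusted p 0.529). Only let-7c-1-3p had a value above 0, at 0.13 (SE 0.35).

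Summed over the list, the let-7 family had 82755, 110462 and 126537 CPM on the left and 145424, 132774 and 159933 on the right. The sums did not overlap, and left testicle 1, which was also the shallowest library, was the lowest. Without left testicle 1 the median of the list was -0.27. Summed by seed, the let-7 seed family differed by -0.43 (SE 0.19; unadjusted edgeR p 0.059). Of 307 seed families tested in this way, 0 had an edgeR adjusted p under 0.05 (0%) and 24 had an unadjusted p under 0.05 (7.82%). The members lie apart in the genome. A precursor of let-7a-5p (chr13:48538179-48538272) and 1 of those of let-7f-5p (chr13:48537829-48537917) are in exons of the non-coding gene 6720427I07Rik, that of let-7e-5p (chr17:17830352-17830444) is in an intron of Spaca6, and that of miR-98-5p (chrX:151913214-151913321) is in an intron of Huwe1. Let-7 members are near-identical in sequence, and how reads that fit several were assigned is not given in the sources used here, so single members are less certain than the sum.

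The 17-92 cluster and its paralogues lay the other way. Of 16 tested members, 14 had a log2 fold change above 0, against 58.0% of all tested, with a median of 0.38 against 0.05, and 0 passed the test after adjustment. Sides did not overlap for 4 members, all higher on the left, namely miR-17-5p, miR-18a-5p, miR-25-3p and miR-93-3p, where 7.76% of all tested miRNAs were higher on the left without overlap. With all 18 libraries in 1 fit the median was 0.16, and without both libraries numbered 1 it was 0.20.

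MiR-17-5p, from the host transcript Mir17hg (chr14:115043671-115043754), had 394, 351 and 234 CPM on the left and 216, 201 and 187 on the right (0.70, SE 0.22; edgeR adjusted p 0.574). Left testicle 3 lay near the right libraries, and the 3′ arm of the same hairpin, miR-17-3p, had a small fitted difference of -0.04 (SE 0.15). MiR-18a-5p (chr14:115043851-115043946) had 646, 595 and 555 CPM on the left and 473, 464 and 427 on the right (0.40, SE 0.13). Its libraries were close together within each side.

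The paralogues in Mcm7, a gene for a DNA replication helicase subunit, had similar values. In an exon of that gene (chr5:138165321-138165404), miR-25-3p had 1029, 1027 and 851 CPM on the left and 670, 834 and 651 on the right (0.43, SE 0.16). In an intron of it (chr5:138165737-138165818), miR-106b-5p had 88.6, 115 and 51.6 CPM on the left and 50.6, 53.1 and 36.0 on the right (0.87, SE 0.33), and the sides overlapped. The more abundant miR-93-5p (0.15, SE 0.14) and miR-92a-3p (0.09, SE 0.14) also overlapped. The list summed to 11775, 10318 and 9430 CPM on the left and 8793, 9219 and 8247 on the right, so that the nearest libraries of the sides were close together.

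**Figure D2:**
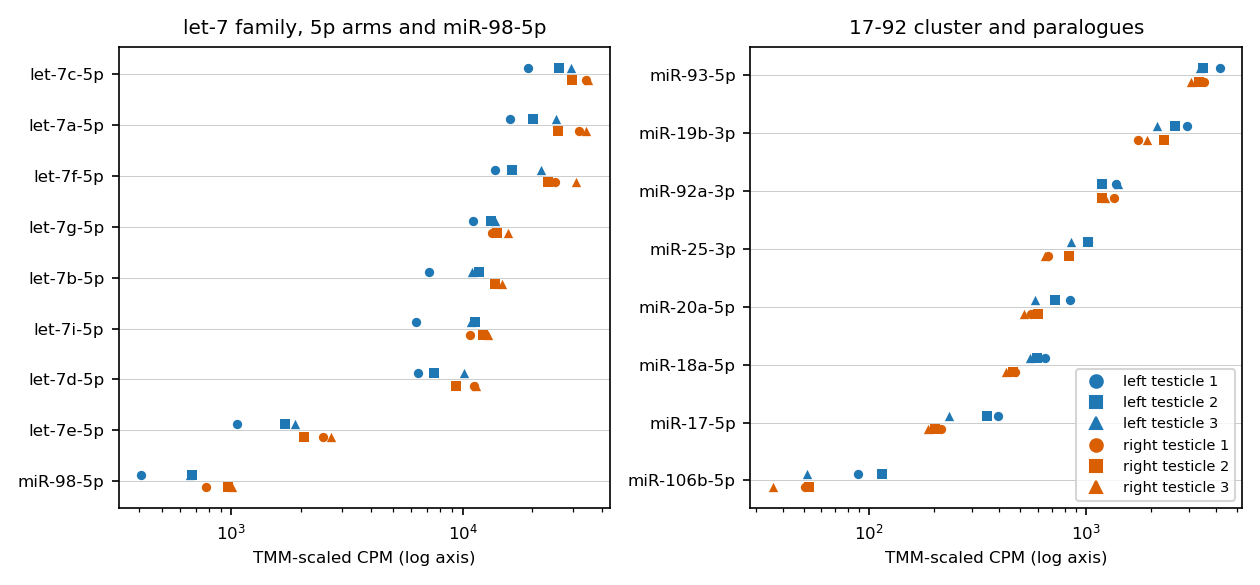
TMM-scaled CPM (log axis) of 9 let-7 family miRNAs and 8 miRNAs of the 17-92 cluster and paralogues in each of the 6 testicle libraries, blue for left and orange for right, with the marker shape giving the replicate number. Right libraries lie above left ones for let-7a-5p, let-7f-5p and let-7e-5p, and left above right for miR-17-5p, miR-18a-5p and miR-25-3p, and left testicle 1 is the lowest of the 6 libraries for all 9 let-7 family miRNAs.

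Among the 20 miRNAs with the lowest p-values, miR-341-3p led, from an intron of Rian in the imprinted Dlk1-Dio3 region (chr12:109611500-109611595). It had 4.17, 6.19 and 6.02 CPM on the left and 20.1, 17 and 12.2 on the right, a difference of -1.54 (SE 0.30; edgeR adjusted p 0.574). All right libraries exceeded all left ones, at few counts per library. That region as a whole had no common direction: of 34 tested members 20 were above 0, with a median of 0.04.

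MiR-183-5p, known for its abundance in sensory cells, comes from an intergenic precursor (chr6:30169668-30169737). It had 1171, 993 and 869 CPM on the left and 519, 754 and 453 on the right (0.81, SE 0.23; edgeR adjusted p 0.574), with no overlap. The neuronal miR-384-5p had 20.8, 14.6 and 16.3 CPM on the left and 5.95, 9.52 and 1.83 on the right (1.52, SE 0.50), also without overlap. Both are high in eye libraries, where they had 44917 to 51985 and 3270 to 5473 CPM of the library totals. Other miRNAs high in the eye had mixed values. Among these, miR-124-3p had 2017, 1228 and 1436 CPM on the left and 1345, 1263 and 958 on the right. The 6 neuronal markers summed to 1701 to 2510 CPM on the left and 1417 to 1833 on the right. The 8 retina and lens markers, none of them at 0 in all libraries, summed to 13612 to 20320 CPM on the left and 17741 to 29755 on the right. Most of that sum came from miR-204-5p (-0.44) and miR-184-3p (-0.37). By member, 4 of the 6 tested were above 0 and 2 below (median 0.16). Those above 0 include miR-183-5p itself and miR-211-5p (0.82), whose sides overlapped. The part of eye markers in the values of miR-183-5p and miR-384-5p was not tested.

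Both miR-7210-5p and miR-7210-3p, the arms of an intergenic precursor (chr14:24088877-24088930), were higher in level on the left. MiR-7210-5p had 222, 107 and 171 CPM on the left and 84.0, 43.1 and 88.5 on the right (1.21, SE 0.38). MiR-7210-3p had 213, 134 and 168 CPM on the left and 115, 57.1 and 94.6 on the right (0.95, SE 0.31). In both arms libraries numbered 2 were the lowest of their side.

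Towards the left lay further miR-324-5p (171, 119 and 72.2 CPM against 38.7, 66.6 and 60.4 on the right; 1.12, SE 0.36), in an exon of Dvl2 (chr11:70012043-70012131). MiR-148a-3p, a regulator of DNA methyltransferase and lipid genes, had 1271, 1700 and 822 CPM on the left and 665, 771 and 793 on the right (0.77, SE 0.27). In both miRNAs left testicle 3 was close to the right libraries. MiR-345-5p, miR-484, and the X-linked miR-742-3p had smaller differences of 0.76, 0.52 and 0.53, without overlap. The other arm of the last, miR-742-5p, was uneven, at 167, 1.13 and 12.9 CPM on the left and 128 to 136 on the right.

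Towards the right lay miR-100-3p, with 91.7, 97.4 and 107 CPM on the left and 171, 131 and 145 on the right (-0.59, SE 0.16). Its other arm, miR-100-5p, was far more abundant, at 9608 to 10222 CPM on the left and 10390 to 10473 on the right, and differed by -0.07 (SE 0.10). MiR-1947-5p (-0.90), miR-12204-5p (-0.67), miR-463-5p (-0.52) and miR-7a-5p (-0.55) also did not overlap. For all 20, the edgeR adjusted p was 0.574.

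**Figure D3:**
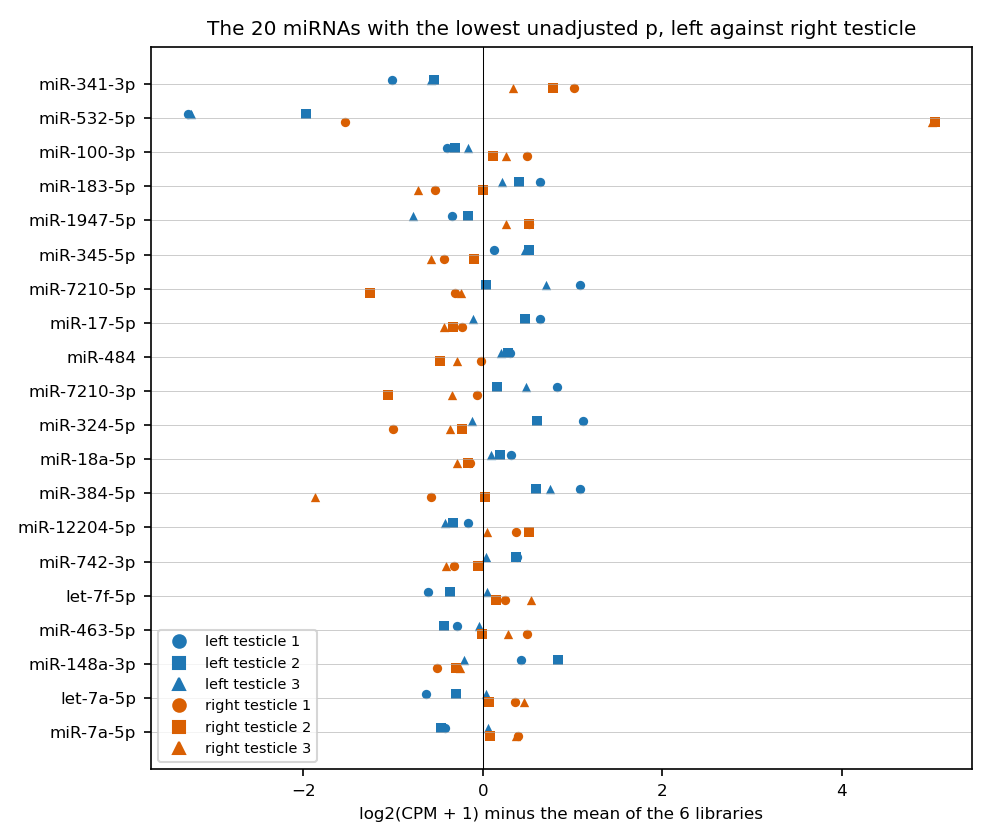
The 20 miRNAs with the lowest unadjusted p-values, each shown as log2(CPM + 1) in the 6 testicle libraries minus the mean over the 6, with blue for left and orange for right. The sides do not overlap for these miRNAs, which were chosen by this contrast, and the spread of miR-532-5p is far wider than that of the others.

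MiR-532-5p, from an intron of Clcn5 on the X chromosome (chrX:7248402-7248497), had the largest fitted difference of the 464 tested miRNAs. Its counts were 4, 21 and 5 on the left and 22, 3299 and 2653 on the right, so right testicle 1 was at the level of left testicle 2. The difference was -7.26 (SE 1.70, edgeR adjusted p 0.574), and DESeq2 gave an adjusted p of 0.000167. Without right testicle 1 edgeR gave an adjusted p of 0.00615. That fit left out the only right library at the left level, so it adds no support for a side difference. The other arm, miR-532-3p, had 144, 120 and 69 counts on the left and 2, 3 and 59 on the right (2.81, SE 1.12). The arms thus lay in opposite directions.

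The log2 ratio of 5p to 3p for miR-532 had a mean of -3.60 on the left and 5.87 on the right, a difference of -9.47 (SE 1.64; limma adjusted p 0.122). Among 121 arm ratios, 0 passed (0%) and 7 had an unadjusted p under 0.05 (5.79%). With the replicate number as a block, limma gave miR-532 an adjusted p of 0.0032 and it passed alone. Without right testicle 1, the right library with the lowest ratio (2.80), its limma adjusted p was 0.041. The arms were also uneven between libraries of the eye: miR-532-5p had 7155, 16 and 6195 counts in the left eye and 5554, 5257 and 23 in the right eye, so a value near 0 occurred on both sides there.

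MiR-532-5p was one of 11 miRNAs that were far lower in some testicle libraries than in others, most of them near 0 there. They were picked after their values were seen. The rule took those with a gap of at least 10-fold between neighbouring libraries, among the 288 that averaged 50 CPM or more. As a set they therefore get no test. Where single members have a p-value, it comes from a fit over all tested miRNAs or arm ratios. The 11 are 3.82% of the 288 in the testicle, where eye libraries gave 1.12% (3 of 267) and lung libraries 0.87% (2 of 230). Several of the 11 had too few counts in eye and lung to average 50 CPM there, so these shares cover different miRNAs. For instance, miR-871-3p had at most 9 counts in any eye library and 70 in any lung library. None split exactly by side.

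MiR-743b-3p (chrX:66777256-66777332) had 4362, 5 and 4955 counts on the left and 9, 8 and 5 on the right. Both high libraries were left ones, and left testicle 2 was as low as the right libraries. Its neighbour miR-743a-3p, with the same seed, had no library near 0, at 2968, 2557 and 2493 CPM on the left and 2219, 1419 and 2292 on the right. The sides did not overlap (0.43, SE 0.22), and the other arm of miR-743b-3p, miR-743b-5p, kept to 259 to 294 CPM.

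MiR-871-3p (chrX:66810428-66810504) had 41, 16109 and 32 counts on the left and 26285, 23977 and 34 on the right. Its other arm, miR-871-5p, had 7441 to 13627 CPM in the same libraries. MiR-880-3p had 1, 2236 and 1 counts on the left and 1936, 0 and 1741 on the right, and miR-881-3p had 5051, 37 and 5822 on the left and 14, 45 and 9808 on the right. Each of these X-linked miRNAs had its own set of high libraries, on both sides. Left out of the fit, the uneven miRNAs changed neither the number called (0 of 455) nor the number with an unadjusted p under 0.05 (36).

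**Figure D4:**
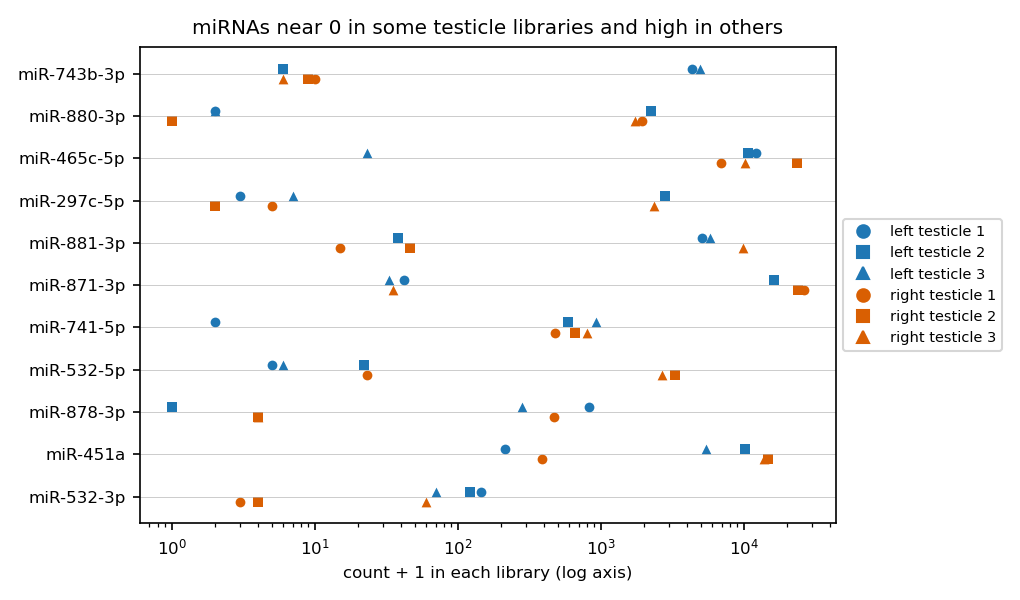
Counts plus 1 (log axis) of the 11 uneven miRNAs in each testicle library, blue for left and orange for right, with the marker shape giving the replicate number. Each miRNA falls into a low and a high set of libraries, and for none is the high set all 3 libraries of a side.

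The X-linked miR-506 group was mixed, with more members below 0 than above. Of 33 tested members 12 were above 0 and 21 below, against 58.0% and 42.0% of all tested, with a median of -0.13. With library totals alone, 16 were above 0 and 17 below, with a median of -0.03. With all 18 libraries in 1 fit, 11 were above 0 and 23 below, with a median of -0.30. Under every other alternative the median was also below 0. Sides did not overlap for 3 members with higher left values and 4 with higher right values (7.76% and 8.19% of all tested), and 0 passed. MiR-470-5p had 25732, 17149 and 31614 CPM on the left and 38298, 23266 and 28909 on the right (-0.28, SE 0.28). MiR-463-5p, whose sides did not overlap, had 6136, 5544 and 7240 against 10556, 7427 and 9065 (-0.52, SE 0.18). The names miR-465a-3p, miR-465b-3p and miR-465c-3p carried identical counts in every library and count as 1 measurement (-0.35, SE 0.26).

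The other lists had medians between -0.29 and 0.26, and 0 members passed in any of the 24 lists. The germ cell miR-34 and miR-449 family had 4 of 7 above 0 (median 0.12), and the miR-29 family, known for targeting collagen genes, 4 of 6 (median 0.19), with miR-29a-3p at 2494 to 3155 CPM on the left and 2314 to 2409 on the right. The miR-29 median was 0.03 without right testicle 1, 0.02 without both libraries numbered 1 and -0.01 with all 18 libraries in 1 fit. Endothelial miR-126a-3p overlapped between the sides, at 21974 to 26156 CPM on the left and 22741 to 23913 on the right (0.01, SE 0.12). The epithelial miR-200 family had 4 of 7 above 0 (median 0.00) and leukocyte miRNAs 4 of 8 (median 0.10). The mesenchymal miR-199 and miR-214 list had 6 of 6 above 0 (median 0.26), of which miR-199a-3p and miR-199b-3p carried identical counts, and all members overlapped between the sides. Without right testicle 1, 3 of its 6 were above 0 (median 0.03), without left testicle 2 the median was 0.11, and with all 18 libraries in 1 fit it was 0.07. For 6 lists the sign of the median was the same under TMM, relative log expression, library totals and the fit of all 18 libraries: above 0 for 17-92 and mesenchymal miRNAs, and below 0 for let-7, the X-linked group, miR-132 and miR-212, and red cell miRNAs. Leaving out a library turned the red cell median, to 0.15 without left testicle 1 and 0.02 without right testicle 3. The miR-132 and miR-212 median was -0.06 without left testicle 2 and likewise without right testicle 1.

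**Figure D5:**
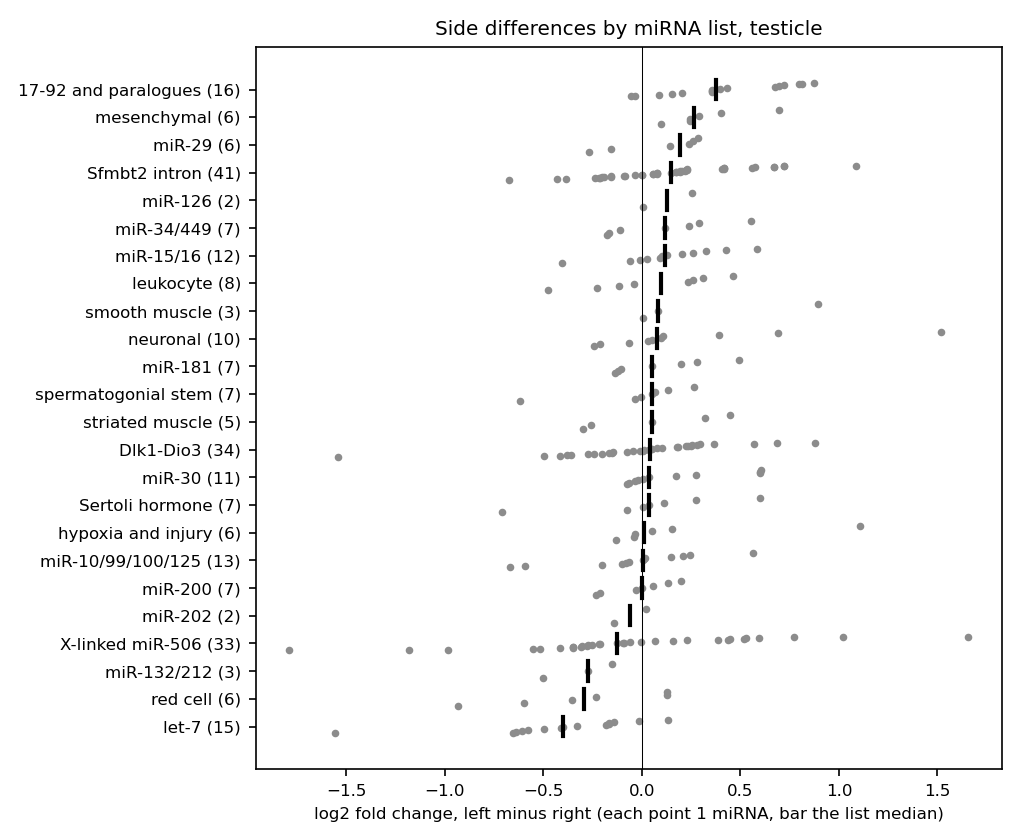
Log2 fold changes of left minus right for the tested members of each list, with 1 point per miRNA and a bar at the list median, and the number tested in brackets. The let-7 median is the lowest at -0.40 and the median of the 17-92 cluster and paralogues the highest at 0.38, and most other lists straddle 0.

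Libraries were also compared by replicate number. Red cell miR-451a had 221, 5680 and 4683 CPM on the left and 286, 7371 and 8349 on the right, so both libraries numbered 1 were low. In a test of the 3 replicate numbers, added after the values were seen, it was the single miRNA of 464 to pass (edgeR adjusted p 0.0023), and 97 had an unadjusted p under 0.05. Red cell miRNAs in sum had 241, 5868 and 4785 CPM on the left and 329, 7522 and 8502 on the right, so the sides overlapped. In bulk tissue, fewer cells of a type and less RNA per cell cannot be told apart. Without both libraries numbered 1, edgeR called 1 miRNA between the sides, miR-532-5p (adjusted p 0.0209), and the let-7 median was -0.26. This fit left out the only right library in which miR-532-5p was low, so the call adds no support for a side difference.

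Side differences in the testicle were set against those of the other organs in 1 fit each. Of 642 miRNAs, 0 differed between testicle and eye (0%; 20 with an unadjusted p under 0.05, 3.12%) and 0 between testicle and lung (0%; 24, 3.74%) by edgeR, and DESeq2 called 0 in both. Within the eye 18 of 487 tested miRNAs had an unadjusted p under 0.05 between left and right, and in the lung 1 of 430, with 0 called in either. The eye and lung libraries were deeper, at 2451484 to 2790471 counts.

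Correlations of the side difference with sequence features were low. Over the 377 tested miRNAs with a RefSeq sequence, log2 fold change correlated with GC content at Pearson r = 0.02 and Spearman rho = 0.01, with length at 0.09 and 0.11, and with mean CPM at -0.18 and -0.18. These are descriptions across miRNAs that share libraries and families.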

How the data were processed

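Per the labels' protocols, total RNA was taken up with a spin-column kit and made into small RNA libraries for the BGI-500 platform. The submitters' processing notes name GRCm38.p6. Which aligner and counter were used, and how reads that fit several miRNAs were handled, is not given in the sources used here. Raw counts were deposited by the authors for each mature miRNA, as whole numbers. Of 1431 names, 22 formed 10 sets with the same counts in every library; the 12 names beyond the first of each set made up 3.64% to 5.54% of the counts in testicle libraries.

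Libraries were grouped by labelled tissue. The sides were compared in R 4.3.3 by the quasi-likelihood test of edgeR 4.0.16, with TMM scaling, the filterByExpr filter by side (464 kept, 967 not) and p-values adjusted by Benjamini and Hochberg, called under 0.05. Arm ratios (log2 with 1 CPM added) were tested with limma 3.58.1, and seed families as summed counts with edgeR. Alternatives were DESeq2 1.42.0, other scalings, filters, merged names and left-out libraries. Thinned counts, leaving out both libraries numbered 1, leaving out uneven miRNAs and the test of replicate numbers were chosen after seeing the data. The procedures were also run on simulated data. The outcome is not reported here, so the size of change that these tests could miss is not given.

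Same-numbered left and right libraries deviated together (r = 0.22, 0.14 and 0.26, against -0.20 to -0.04 for other pairs). Deviations were taken from the mean of each side, so they cancel within a side. Where same-numbered pairs are positive, other pairs then tend to be negative, so the latter are no separate evidence. The labels do not state a pairing. The main tests left the replicate numbers out, and fits with the number as a block were an alternative. The rule for names takes the 20 lowest p-values, the 10 most abundant miRNAs, the 5 largest and 5 smallest non-overlapping differences averaging 50 CPM or more, their other arms, up to 3 abundant members per list, and the 5 seed families and arm ratios of lowest p; part of these are printed. Further list members, markers and uneven miRNAs were named after their values were seen. The members and lists were chosen with earlier results of these data known. RefSeq gave a sequence for 1209 of the 1431 names.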

Additional observations from a re-analysis of the deposited data

How the results depend on the processing

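The number of miRNAs called between left and right testicle was 0 under every alternative except 4, each with 1 call: DESeq2, leaving out right testicle 1, and leaving out both libraries numbered 1 called miR-532-5p (1 also among the 20 of lowest p), and leaving out left testicle 2 called miR-743b-3p. The last passed the count filter only once its low left library was left out, so this call carries no weight. The edgeR calls of miR-532-5p came likewise only once its low right library was left out, so they carry no weight either. Leaving out 1 library at a time gave 0 to 1 calls, and 13 to 78 miRNAs with an unadjusted p under 0.05. With the replicate block 0 miRNAs were called and 1 arm ratio, miR-532, passed; leaving out 1 library gave 0 to 1 arm ratios. The block changed no other call. Without a count filter the side difference in the testicle differed from that in the eye for 4 miRNAs and from that in the lung for 4, and leaving out 1 library gave 0 to 1 for the lung and 0 for the eye. The distance between sides ranged from -1.13 to 4.11 with 1 library left out, below 0 in 5 of 6. Differences between replicate numbers were called for 4 miRNAs with relative log expression scaling and 3 with library totals. The causes were not tested.

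Signs were followed for 34 single miRNAs, those named for lowest p, largest or smallest difference, or abundance. Among these 34, only abundant ones near 0 changed sign. Other arms and further list members were not followed in this way. With all 18 libraries in 1 fit, the log2 fold change was -0.0725 for miR-449a-5p, -0.106 for miR-22-3p, -0.174 for miR-202-5p, -0.152 for miR-26a-5p, -0.180 for miR-99a-5p and -0.184 for miR-143-3p. Without a count filter it was -0.0234 for miR-22-3p, -0.0868 for miR-202-5p, -0.0703 for miR-26a-5p, -0.0964 for miR-99a-5p and -0.0992 for miR-143-3p. With relative log expression scaling and, to these digits, with DESeq2, it was -0.0337 for miR-202-5p, -0.0164 for miR-26a-5p, -0.0419 for miR-99a-5p and -0.0461 for miR-143-3p. With at least 10 counts in every library it was -0.00238 for miR-143-3p. Without both libraries numbered 1 it was -0.0760 for miR-202-5p, -0.00216 for miR-99a-5p and 0.00161 for miR-34b-3p. Leaving out 1 library at a time gave -0.0234 to 0.308 for miR-449a-5p, -0.0173 to 0.191 for miR-22-3p, -0.0845 to 0.0763 for miR-202-5p, -0.0850 to 0.0932 for miR-26a-5p, -0.0587 to 0.0697 for miR-99a-5p, -0.0597 to 0.0461 for miR-143-3p and -0.391 to 0.0607 for miR-34b-3p. Thinned to the 952608 counts of the shallowest library, 413 miRNAs were tested, 0 were called and 33 had an unadjusted p under 0.05. How the power of the test falls with depth was not tested.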
